A study of Mus musculus with 6 samples.

Results

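The aminoacyl-tRNA synthetases were followed in mouse satellite cell cultures with and without beta-aminopropionitrile (BAPN). The set held 36 genes, chosen by symbol from a list of the cytosolic and the nuclear-encoded mitochondrial enzymes, out of 18864 gene rows. Of these, 20 encode cytosolic enzymes and 16 encode mitochondrial enzymes, and all 36 passed the filter on low values, as did 13716 genes in all. That filter asked for 10 or more normalized counts, averaged across the libraries.

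BAPN is an inhibitor of lysyl oxidases, the enzymes that cross-link collagen and elastin, and the study asked how it affects the differentiation of satellite cells, which are muscle stem cells. Satellite cells from the gastrocnemius of C57Bl/6 mice were placed in differentiation medium and kept for 24 h either with 0.25% BAPN (3 libraries) or without it (3 libraries), with no other agent or allele that differs between the groups. The strain is spelled C56Bl/6 on the sample labels, and age is given as 8 weeks there and as 6 weeks in the growth protocol. The serum is given as 4% horse serum in the design and as 10% fetal calf serum in the growth protocol. Both groups were grown on 4% matrigel after fibroblasts had been reduced by repeated plating, so the cultures were enriched and not sorted. The design describes the 3 replicates as independent, and the number of animals behind each is not given in the sources used here.

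An aminoacyl-tRNA synthetase joins 1 amino acid to the transfer RNAs that carry it to the ribosome. Most amino acids are served by separate nuclear genes for the cytosol and for the mitochondrion, whose own ribosomes make subunits of the respiratory chain. Several cytosolic enzymes sit together in the multi-synthetase complex on the scaffold proteins Aimp1, Aimp2 and Eef1e1. In mammalian cells the transcription factor ATF4, which is translated when eIF2alpha is phosphorylated, is known to drive many cytosolic synthetase genes together with genes of amino acid synthesis and uptake, through elements bound by C/EBP-ATF dimers.

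Library totals ran from 17125602 to 18682099 counts, so depth differed little between groups. The first principal component held 67.1% of the variance and the second held 16.5% and set the libraries numbered 3 apart from those numbered 1 and 2. Replicates 1 and 2 of a group were close to each other: the mean chi-square per gene was 2.1 for BAPN and 2.28 for control, where sampling noise alone gives 1, and 19.7 to 22.0 against replicate 3. They therefore differed by more than sampling noise and were kept as separate libraries, and counts are also given with them summed. This spread cannot tell separate cultures from separate library preparations of 1 culture. The edgeR p-values treat replicates 1 and 2 as independent. With them summed, 4 of the 14 synthetase calls given below were kept. Myogenic markers marked the cells (Myod1, Myog and Des), and 6 of 8 fell with BAPN. Pax7 and Myf5 were not called (log2 0.23 and 0.04, edgeR adjusted p = 0.44 and 0.93), with BAPN libraries on both sides of the controls. Pax7 had 1758, 1629 and 900.5 with BAPN and 1287, 1220 and 1155 in controls. Myf5 had 322, 312 and 638 with BAPN and 437, 400.4 and 400.1 in controls. The summed normalized count of all 8 was 197926 to 242036 with BAPN and 403765 to 534130 in controls. Myh3 was the largest part of this sum, with 74326 to 109297 with BAPN and 200490 to 301466 in controls. Fewer cells of a type and less RNA per cell cannot be told apart in bulk libraries. Of the other lists, summed fibroblast markers were 3032 to 3711.5 against 4756 to 6256 (2 of 5 tested fell), smooth muscle and pericyte markers 365 to 476 against 1004 to 1147 (both tested fell), macrophage markers 152 to 250.5 against 50.9 to 88.4 (1 of 2 tested rose, Cd68, with Ptprc and Adgre1 at or near 0), endothelial markers 82.8 to 121 against 79.3 to 98.3, Schwann cell markers 41.0 to 50.7 against 39.8 to 48.8, and adipocyte markers 14.5 to 23.4 against 5.1 to 29.8 with Cidec at 0 throughout. The macrophage sum was nearly all Cd68, with 237.0, 245.9 and 137.8 with BAPN and 39.7, 55.9 and 27.6 in controls. Other macrophage markers had lower means with BAPN, at low counts. These were Lyz2 (7.5 against 16.9, not called), Csf1r (1.6 against 8.0) and Ptprc (0.6 against 2.5). The counts of markers called stand beside 15.6% of all genes tested called higher and 20.8% called lower. The part of these marker shifts in the results on synthetases was not tested.

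With BAPN, cytosolic enzymes were called in both directions and mitochondrial enzymes only downward. Among the 20 cytosolic enzymes, 4 rose with BAPN (Cars, Aars, Sars and Iars) and 4 fell (Hars, Farsa, Dars and Kars) in edgeR's quasi-likelihood test at an adjusted p under 0.05. This is 4 of 20 in each direction, beside 15.6% of all genes tested called higher and 20.8% called lower. Among the 16 mitochondrial enzymes none was called higher and 6 fell (Mars2, Ears2, Nars2, Rars2, Tars2 and Aars2), or 37.5%. All 7 mitochondrial enzymes with an unadjusted edgeR p under 0.05 lay below 0, and DESeq2 also called 0 higher. The median log2 fold change was 0.29 over the cytosolic enzymes (range −0.46 to 0.75), −0.21 over the mitochondrial enzymes (range −0.66 to 0.24) and −0.03 over all genes tested. The fitted change was above 0 for 13 of 20 cytosolic and for 2 of 16 mitochondrial enzymes. The difference between the compartments as groups was not itself tested.

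The groups' normalized counts did not overlap for 9 cytosolic enzymes that were higher in every BAPN library and for 4 that were lower, while 7 overlapped. Over all genes tested, 22.4% were higher in every BAPN library and 28.5% lower. No mitochondrial enzyme was higher in every BAPN library, 6 were lower in every one and 10 overlapped. The count of cytosolic calls above control depended on the scaling and the model. It was 7 with TMM scaling, 8 with upper quartile scaling and 9 with DESeq2, each with 4 lower, where 17.9%, 17.7% and 16.7% of all genes were called higher. The shares of all genes called lower were 17.4%, 17.7% and 17.2% in the same order. With the replicate number as a block, edgeR called 11 cytosolic enzymes higher and 4 lower and 7 mitochondrial enzymes lower, beside 20.3% of all genes higher and 27.0% lower.

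**Figure D1:**
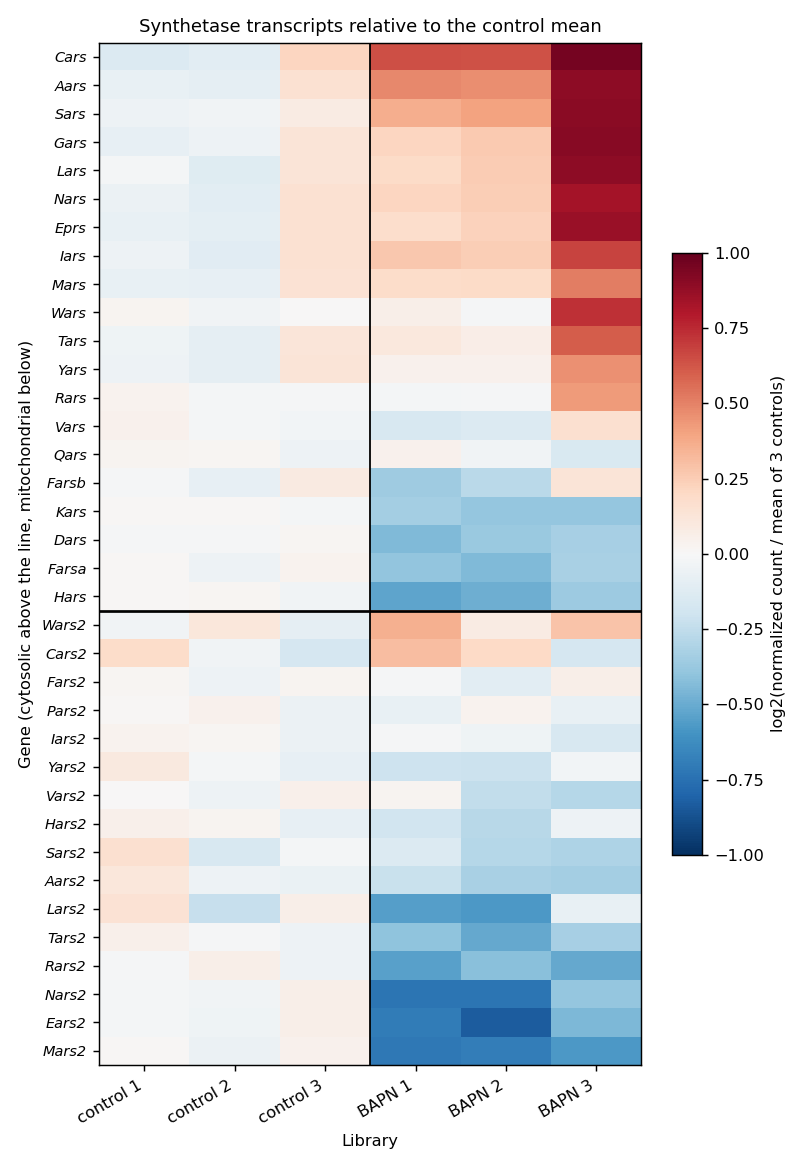
Log2 of each synthetase's normalized count (rows) over its mean of the 3 controls, in each of the 6 libraries (columns), on a colour scale from blue (lower) to red (higher), with cytosolic and mitochondrial enzymes in separate blocks. BAPN replicate 3 was the highest of all 6 libraries for 15 of the 20 cytosolic enzymes and for 1 of the 16 mitochondrial enzymes.

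Promoter sequence is shown because the cytosolic members differed in whether they hold the letters of the C/EBP-ATF element. The motif searched was TGATGNAA, with TTNCATCA on the other strand, in RefSeq windows from 250 bases before to 50 bases after each gene's start (GRCm38.p6). Of the 36 members, 27 had an entry, 13 cytosolic and 14 mitochondrial. The motif occurred in 5 of the 13 cytosolic windows (38.5%: Aars, Gars, Iars, Tars and Yars) and in 0 of the 14 mitochondrial windows, beside 3.97% of all 32851 windows and 4.51% of the 27025 genes that have one. A match in each of these genes is printed in a window of 28 bases, 5′ to 3′ on the gene's strand, with the motif in capitals and the position of its first base counted from the RefSeq start.
Aars, first base at 10, chr8:111033841-111033868, + strand: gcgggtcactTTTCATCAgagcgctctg
Gars, first base at −30, chr6:55037961-55037988, + strand: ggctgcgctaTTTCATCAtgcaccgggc
Iars, first base at 8, chr13:49682127-49682154, + strand: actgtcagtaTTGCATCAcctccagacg
Tars, first base at −15, chr15:11399656-11399683, − strand: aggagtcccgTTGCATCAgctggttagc
Yars, first base at 4, chr4:129189896-129189923, + strand: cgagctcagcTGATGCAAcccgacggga
The windows of Aars, Iars, Tars and Yars reach past the start and so include transcribed bases. In GENCODE M21, Aars and Yars start further upstream, at 111033144 and 129189760, against RefSeq starts at 111033842 and 129189903. The positions printed for these genes hold for the RefSeq start only. All 5 of these genes had a fitted change above 0 with BAPN, as did 13 of the 20 cytosolic enzymes in all. Of the 5, Aars and Iars were called. Sars rose with no match in its window. Eprs and Mars, uncalled with a fitted change above 0, and Dars, Farsa, Kars, Farsb and Qars, below 0, also had none. Whether the motif goes with the direction of change was not tested. Cars, Hars, Lars, Nars, Rars, Vars, Wars, Hars2 and Pars2 had no entry. In the list of ATF4 and amino acid response genes, 7 of 21 windows held the motif (Atf3, Trib3, Chac1, Asns, Pycr1, Slc7a11 and Nupr1). These matches describe letters only.

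The stretch upstream of Gars is given whole, since Gars serves both compartments and its match lies wholly upstream. It is the 250 bases before the RefSeq start, chr6:55037751-55038000 on the + strand of GRCm38.p6, with the motif in capitals.
Gars: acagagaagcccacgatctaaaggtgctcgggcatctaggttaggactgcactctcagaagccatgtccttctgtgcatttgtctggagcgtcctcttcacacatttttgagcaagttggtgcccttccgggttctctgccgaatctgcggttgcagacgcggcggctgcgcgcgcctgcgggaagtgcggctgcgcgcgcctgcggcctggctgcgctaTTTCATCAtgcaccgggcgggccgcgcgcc

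The cytosolic enzymes that rose were led by Cars, the cysteinyl-tRNA synthetase (GRCm38 chr7:143557230-143600090, − strand, GENCODE M21). Its normalized count was 4274, 4254 and 5294 in BAPN replicates 1, 2 and 3, and 2485, 2534 and 3172 in controls 1, 2 and 3. Every BAPN library was above every control, and the highest value was BAPN replicate 3. The change was 1.69-fold (log2 0.75, SE 0.12, edgeR adjusted p = 0.0030). Aars, the alanyl-tRNA synthetase (chr8:111033144-111057664, + strand), had 9835, 9686 and 13071 with BAPN and 6693, 6599 and 7798 in controls, again without overlap (log2 0.63, SE 0.13, edgeR adjusted p = 0.0074). Part of the Aars exons, 13.6% of its 60-base words, also occurs in another gene, mostly Exosc6 on the same strand. Sars, the seryl-tRNA synthetase (chr3:108424865-108445209, − strand), had 6675, 6836 and 9669.9 with BAPN and 5002.5, 5069 and 5471.5 in controls. The groups did not overlap, and BAPN replicate 3 again stood highest (log2 0.58, SE 0.14, edgeR adjusted p = 0.015). Iars, the isoleucyl-tRNA synthetase (chr13:49682100-49734267, + strand), had 6301, 6201 and 8322 with BAPN and 5038, 4809 and 5799 in controls, without overlap (log2 0.41, SE 0.13, edgeR adjusted p = 0.036).

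Cars and Aars kept their calls whichever single library was left out. Sars lost its call without control replicate 1 (edgeR adjusted p = 0.0568), and Iars lost its call without control replicate 1 (0.112) and without control replicate 2 (0.114), so that 2 cytosolic enzymes were called higher without control replicate 1, where the count over all genes tested was 1461, against 2140 with all libraries.

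Another 5 cytosolic enzymes lay above every control in all 3 BAPN libraries without passing the test. Gars, the glycyl-tRNA synthetase, whose single gene serves the cytosol and the mitochondrion (chr6:55038007-55079500, + strand), had 7363, 7592.5 and 11910.2 with BAPN and 5983, 6115 and 6925 in controls. The value of BAPN replicate 3 stood far above the other two BAPN libraries. The log2 fold change was 0.50 (SE 0.18, edgeR adjusted p = 0.061), and with the replicate block the edgeR adjusted p was 0.0024. Mars, the methionyl-tRNA synthetase, had 2764, 2785 and 3476.5 with BAPN and 2315, 2296 and 2693 in controls (log2 0.31, SE 0.11, edgeR adjusted p = 0.058, or 0.0016 with the block). Mars overlaps Ddit3, the stress factor CHOP, by 68 exonic bases on the other strand, and Ddit3 itself had 1174.5, 1194 and 2996 with BAPN and 217, 200.2 and 204.5 in controls. Whether the counting used strand is not given in the sources used here, so reads in the shared bases cannot be assigned between them. The shared stretch is small, as 0.257% of the 60-base words of Mars also occur in Ddit3. Its part in the count of Mars was not tested.

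Eprs, a single protein that charges both glutamate and proline tRNAs, had 6541.5, 6811 and 10535 with BAPN and 5520.1, 5429 and 6459 in controls (log2 0.46, SE 0.18, edgeR adjusted p = 0.080, or 0.0026 with the block). Nars, the asparaginyl-tRNA synthetase, had 10658, 10930.5 and 16410.5 with BAPN and 8845, 8547 and 10200.2 in controls (log2 0.46, edgeR adjusted p = 0.062, or 0.0016 with the block). Lars, the leucyl-tRNA synthetase and a sensor of leucine for the mTORC1 kinase, had 3286, 3425 and 5342 with BAPN and 2830.3, 2643 and 3152.5 in controls (log2 0.48, edgeR adjusted p = 0.069, or 0.0031 with the block). In all of these the groups did not overlap and BAPN replicate 3 was the highest library. Leaving out BAPN replicate 1 brought Gars (edgeR adjusted p = 0.0448), Lars (0.0469) and Nars (0.0496) past the threshold, leaving out BAPN replicate 3 did so for Gars (0.0435), and leaving out control replicate 3 did so for Mars (0.0326). Without BAPN replicate 1, 7 cytosolic enzymes were called higher, while the count over all genes tested was 1541, against 2140 with all libraries.

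Wars, the tryptophanyl-tRNA synthetase, which interferon is known to induce, shows how far 1 library can carry a value. Its normalized count was 2106.5, 2007 and 3356 with BAPN and 2060.1, 1976 and 2034 in controls. BAPN replicates 1 and 2 lay close to the controls, and the log2 fold change of 0.30 (edgeR adjusted p = 0.23) was 0.02 without BAPN replicate 3. Tars (threonyl, log2 0.28, edgeR adjusted p = 0.16), Yars (tyrosyl, 0.20, 0.25) and Rars (arginyl, 0.15, 0.36) were likewise not called, and with the block the edgeR adjusted p was 0.014 for Tars and 0.034 for Yars. Vars (valyl, −0.04), Qars (glutaminyl, −0.05) and Farsb, the beta subunit of phenylalanyl-tRNA synthetase (−0.15), overlapped between groups and were not called.

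The cytosolic enzymes that fell were tighter between libraries. Kars, the lysyl-tRNA synthetase, which like Gars serves cytosol and mitochondrion from 1 gene (chr8:111993443-112011323, − strand), had 2659, 2571.5 and 2572 with BAPN and 3394, 3394.5 and 3315 in controls. Every BAPN library lay below every control (log2 −0.37, SE 0.053, edgeR adjusted p = 0.0017). Dars, the aspartyl-tRNA synthetase (chr1:128363707-128417368, − strand), had 2154, 2272.5 and 2328 with BAPN and 2914, 2912 and 2969 in controls (log2 −0.38, SE 0.056, edgeR adjusted p = 0.0021). Farsa, the alpha subunit of phenylalanyl-tRNA synthetase (chr8:84856989-84869257, + strand), had 1467, 1421 and 1543 with BAPN and 1953, 1867 and 1979.7 in controls (log2 −0.39, SE 0.059, edgeR adjusted p = 0.0023). Its partner subunit Farsb was not called at log2 −0.15 (edgeR adjusted p = 0.37), and reached −0.31 (0.011) without BAPN replicate 3. Hars, the histidyl-tRNA synthetase (chr18:36766528-36783205, − strand), had 1150.2, 1183 and 1291 with BAPN and 1674, 1681 and 1617 in controls (log2 −0.46, SE 0.064, edgeR adjusted p = 0.0017). In all 4 the groups did not overlap, and each stayed called whichever single library was left out. Hars and Hars2 face away from each other with starts that overlap by 197 bases, and they share 195 exonic bases on opposite strands.

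By structure, the 9 cytosolic class I enzymes held 2 calls higher and 0 lower (median log2 0.30), and the 10 class II enzymes held 2 higher and 4 lower (median 0.07). The shares of all genes tested were 15.6% higher and 20.8% lower. The split by class was not tested, and Eprs, which belongs to both, was left out of it. No class I enzyme with a fitted change below 0 had an unadjusted edgeR p under 0.05, and DESeq2 called 0 of them lower. The 8 members of the multi-synthetase complex held 1 call higher and 2 lower (median 0.23), and the 12 outside it held 3 higher and 2 lower (median 0.29).

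The mitochondrial enzymes that fell were led by Mars2, the mitochondrial methionyl-tRNA synthetase (chr1:55237177-55248470, + strand). Its normalized count was 350.3, 357 and 387.5 with BAPN and 579.7, 554 and 594 in controls, without overlap (0.634-fold, log2 −0.66, SE 0.077, edgeR adjusted p = 8.2e-04). Ears2, the glutamyl enzyme (chr7:122037213-122067263, − strand), had 186, 170.4 and 222 with BAPN and 298.5, 295 and 316 in controls (log2 −0.65, SE 0.12, edgeR adjusted p = 0.0043). Nars2, the asparaginyl enzyme (chr7:96951505-97064758, + strand), had 567, 567 and 719 with BAPN and 927, 915 and 977 in controls (log2 −0.61, SE 0.10, edgeR adjusted p = 0.0034). In each of these the BAPN libraries all lay below the controls. Rars2, the arginyl enzyme (chr4:34614957-34660167, + strand), had 496, 541 and 508 with BAPN and 719, 754 and 697.5 in controls (log2 −0.49, SE 0.071, edgeR adjusted p = 0.0019). Tars2, the threonyl enzyme (chr3:95739976-95760206, − strand), had 464, 431 and 488 with BAPN and 637, 609.8 and 594 in controls (log2 −0.41, SE 0.076, edgeR adjusted p = 0.0049). These 5 did not overlap between groups and stayed called whichever single library was left out. Aars2, the alanyl enzyme (chr17:45506841-45520843, + strand), had 367, 342 and 338 with BAPN and 464, 413 and 409 in controls (log2 −0.30, SE 0.086, edgeR adjusted p = 0.030).

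The call of Aars2 was lost without BAPN replicate 1 (edgeR adjusted p = 0.053), BAPN replicate 2 (0.101), BAPN replicate 3 (0.0509), control replicate 1 (0.111) and control replicate 2 (0.0599), and also with TMM (0.0531), upper quartile scaling (0.0529) and DESeq2 (0.0754).

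Lars2, the mitochondrial leucyl-tRNA synthetase (chr9:123366927-123462666, + strand), had 4165, 4082 and 5804 with BAPN and 6753, 5183 and 6347 in controls. BAPN replicate 3 lay above control replicate 2, so the groups overlapped, and the enzyme was not called (log2 −0.38, SE 0.15, edgeR adjusted p = 0.087). It was called without BAPN replicate 3 (log2 −0.56, edgeR adjusted p = 0.0069) and with the replicate block (0.0070). Sars2, the seryl enzyme, had 296, 266 and 262 with BAPN and 364, 291 and 321 in controls, overlapping (log2 −0.24, SE 0.11, edgeR adjusted p = 0.12). Hars2 (−0.17), Vars2 (−0.16), Yars2 (−0.15), Iars2 (−0.07), Pars2 (−0.04) and Fars2 (−0.02) were also uncalled. Pars2 had the lowest counts of the set. Cars2 (log2 0.13, edgeR adjusted p = 0.53) and Wars2 (0.24, 0.15) were the only members of the mitochondrial group with a fitted change above 0, and neither was called. Iars2 shares 22.5% of its 60-base words with other genes, chiefly Rab3gap2 on the opposite strand, which itself fell (log2 −0.21, edgeR adjusted p = 0.030). Fars2 shares 8.47% with its neighbours on the opposite strand, one of which, Nrn1, rose (log2 1.28, edgeR adjusted p = 0.0016).

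**Figure D2:**
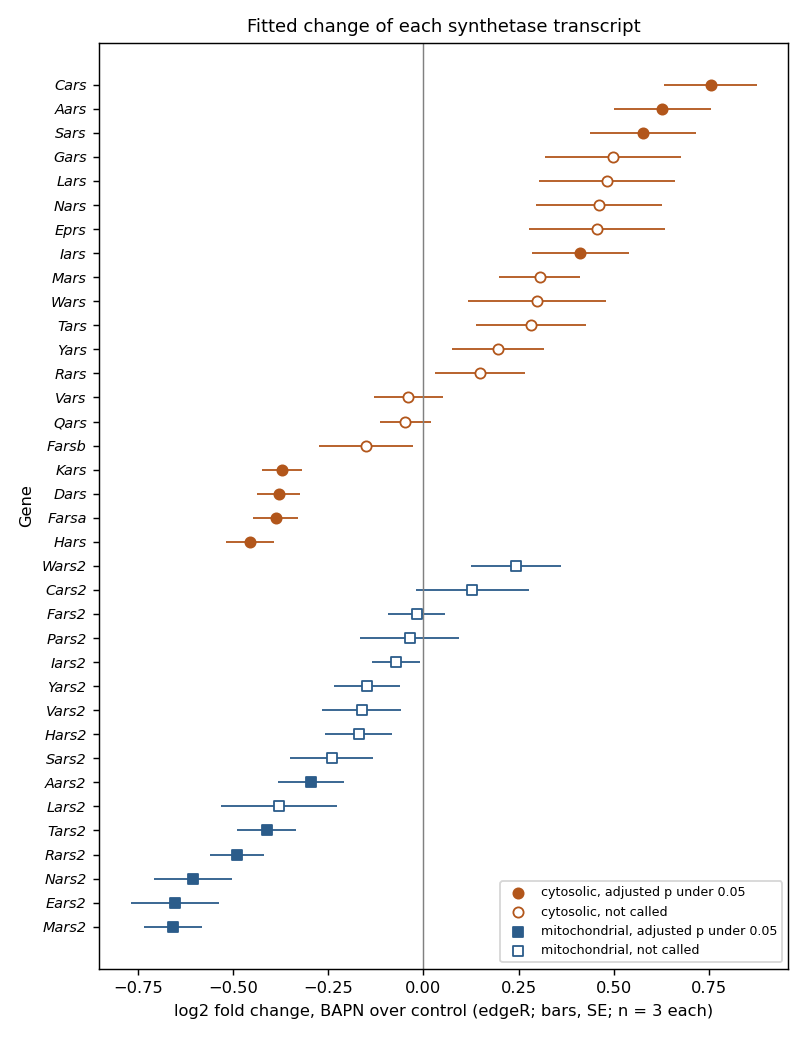
Fitted log2 fold change of each synthetase, BAPN over control (horizontal axis), with bars of 1 standard error from the edgeR fit and filled points for an adjusted p under 0.05. The 8 called cytosolic enzymes lie on both sides of 0, from −0.46 to 0.75, and the 6 called mitochondrial enzymes all lie below it, from −0.66 to −0.30.

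Levels were compared between genes only as normalized count per kb of merged exon. The merged length holds the exons of every annotated transcript, whether or not it was expressed, and so can lower the value of a gene. It was 18102 bases for Eprs, 11294 for Mars2, 11089 for Lars2 and 9282 for Aars, so the ranks below depend on it. In controls the cytosolic enzymes had a median of 675 per kb, from 320.6 (Eprs) to 2112 (Nars), and the mitochondrial enzymes a median of 89.2 per kb, from 26.4 (Pars2) to 549.6 (Lars2). With BAPN the medians were 711 and 78.1 per kb. The ranges met only through Lars2, since the next mitochondrial enzymes, Rars2 and Iars2, stood at 261 and 230 per kb. Nars (2112 ± 202 per kb, SD, n = 3) and Gars (2033 ± 164) were the highest cytosolic members in controls and did not differ beyond their spread. Summed over the 20 cytosolic enzymes, the normalized count was 83385, 83999 and 115630.0 with BAPN and 73129.7, 71794.5 and 80507 in controls. Summed over the 16 mitochondrial enzymes it was 11260.3, 10897 and 12849 with BAPN and 15289, 13437 and 14517 in controls. Lars2 was the largest part of the mitochondrial sum, with 4165, 4082 and 5804 with BAPN and 6753, 5183 and 6347 in controls. Both sums separated the groups, upward for the cytosolic and downward for the mitochondrial enzymes.

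Paired by amino acid, the ratio of cytosolic to mitochondrial transcript was higher with BAPN in most pairs, although the exact test used could not bring any pair under 0.05. The log2 ratio of cytosolic to mitochondrial normalized count was compared for 17 pairs over 16 amino acids, and the difference between groups was above 0 for 14. In 10 pairs every BAPN library was above every control, in 2 every BAPN library was below, and 5 overlapped. For single genes, 22.4% of all tested were higher in every BAPN library and 28.5% lower. No such share was computed for ratios of other genes. A two-sided exact permutation test of 3 against 3 cannot go below 0.1, which every non-overlapping pair reached. The largest difference was Eprs over Ears2, with a log2 ratio of 5.13, 5.32 and 5.57 with BAPN and 4.21, 4.20 and 4.35 in controls, a difference of 1.09. Asparagine (Nars over Nars2) followed with 1.05, methionine (Mars over Mars2) with 0.96, alanine with 0.91 and leucine with 0.84. For leucine the mean log2 ratio of normalized counts was −0.24 with BAPN and −1.08 in controls. Per kb of merged exon, the mean normalized count of Lars was 748 with BAPN and 535.7 in controls, and that of Lars2 was 422 and 549.6. The merged exons were 5368 bases for Lars and 11089 for Lars2, and the comparison between them depends on these lengths. Histidine (Hars over Hars2, −0.29) and phenylalanine by its alpha subunit (Farsa over Fars2, −0.37) were the pairs whose ratio was lower in every BAPN library. The cysteine (exact p = 0.2), proline (0.2), valine (0.7), tryptophan (1.0) and Farsb over Fars2 (0.4) ratios overlapped between groups. Within same-numbered libraries, 12 of the 17 ratios were higher with BAPN in all 3 pairs and 2 were lower in all 3. The 12 include cysteine, with differences of 0.655, 0.512 and 0.738 for numbers 1, 2 and 3, and proline, with 0.332, 0.338 and 0.721. For single genes, 4234 of the 13716 tested were higher in all 3 same-numbered pairs and 5175 were lower. Eprs was paired with both Ears2 and Pars2, and Fars2 with both Farsa and Farsb, so the ratios are not separate. Both genes of a pair entered the earlier counts, so these ratios restate the same libraries.

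**Figure D3:**
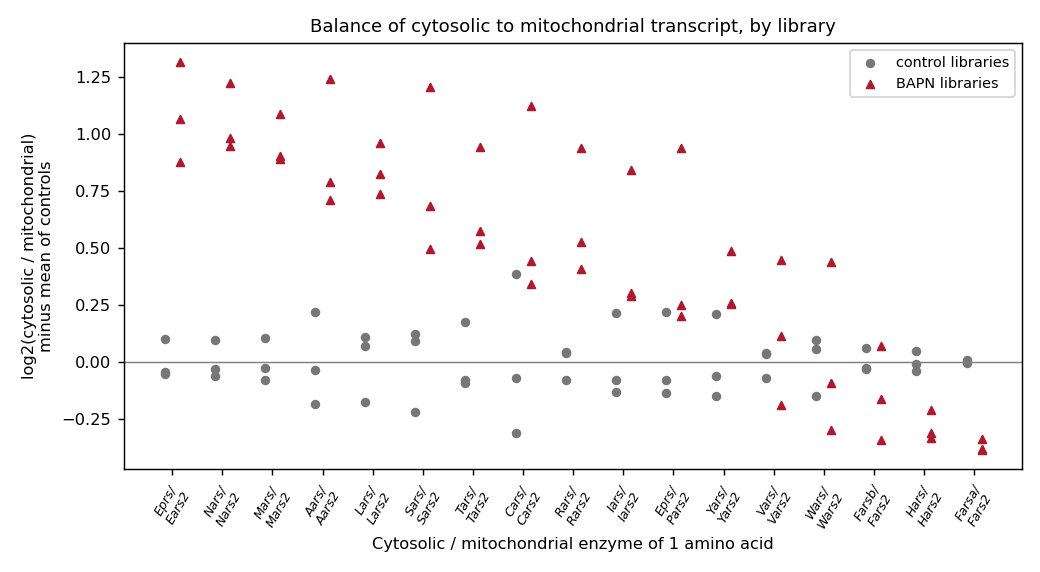
Log2 ratio of cytosolic to mitochondrial normalized count minus its mean over the 3 controls (vertical axis), for the 17 pairs of enzymes that use the same amino acid (horizontal axis), with 1 grey circle per control library and 1 red triangle per BAPN library. Eprs over Ears2 has the widest gap, 1.09 on the log2 scale, and Hars over Hars2 and Farsa over Fars2 lie lower with BAPN.

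The cytosolic enzymes also varied together within the BAPN group. The ratio of BAPN replicate 3 to the mean of BAPN replicates 1 and 2 had a median of 1.34 over the cytosolic enzymes (0.896 to 1.63), 1.07 over the mitochondrial enzymes (0.747 to 1.41) and 1.00 over all genes tested. The value was 1.63 for Wars, 1.59 for Gars and for Lars, 1.58 for Eprs and 1.52 for Nars, and 1.05 for Dars and 0.983 for Kars. The corresponding ratio in controls was 1.12 for the cytosolic and 0.950 for the mitochondrial enzymes. BAPN replicate 3 was the highest of all 6 libraries for 75.0% of the cytosolic enzymes and for 18.9% of all genes tested. The median log2 fold change of the cytosolic enzymes was 0.065 without BAPN replicate 3, against 0.29 with all libraries. By same-numbered pairs the median was 0.124, 0.141 and 0.462 for the cytosolic enzymes and −0.30, −0.234 and −0.202 for the mitochondrial enzymes, so all 3 pairs gave the same sign for each compartment. With replicates 1 and 2 of each group summed, edgeR called 1 cytosolic enzyme higher (Cars, adjusted p = 0.0432) and 1 lower (Hars, 0.0494), and 2 mitochondrial enzymes lower (Mars2, 0.0304, and Rars2, 0.0416), where 5.22% of all genes were called higher and 5.9% lower. Without both libraries of number 3, 11 cytosolic enzymes were called higher and 6 lower, and 9 mitochondrial enzymes lower, where 23.5% of all genes were called higher and 31.1% lower. RNA of 2 unidentified samples had a RIN value under 7.5, and its part in this spread was not tested.

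**Figure D4:**
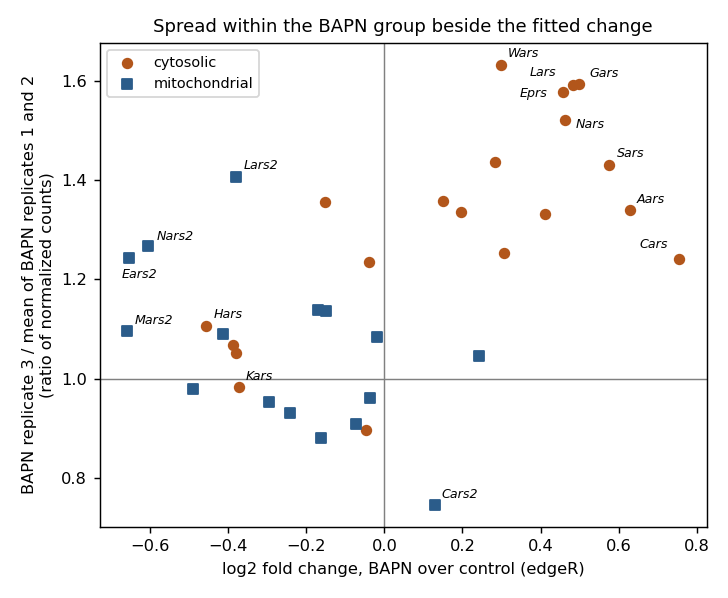
Normalized count of BAPN replicate 3 divided by the mean of BAPN replicates 1 and 2 (vertical axis) against the fitted log2 fold change, BAPN over control (horizontal axis), with 1 orange circle per cytosolic and 1 blue square per mitochondrial enzyme. The circles have a median of 1.34 on the vertical axis, up to 1.63 for Wars, and the squares a median of 1.07. Both axes use the same BAPN libraries.

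The genes around the synthetases are given from lists chosen by role. Both scaffolds Aimp2 and Eef1e1 of the multi-synthetase complex fell and Aimp1 was not called (log2 −0.46, −0.37 and −0.20; edgeR adjusted p = 0.0092, 0.0077 and 0.13). Among synthetase relatives and genes of tRNA quality control or export, Xpot, the exporter of tRNA from the nucleus, had 2805, 2818 and 4998 with BAPN and 2057, 1913 and 1961 in controls (log2 0.84, SE 0.21, edgeR adjusted p = 0.017), without overlap. Dtd2, a deacylase that clears mischarged tRNA, fell (log2 −0.48, edgeR adjusted p = 0.013). In the following lists, counts stand beside 15.6% of all genes called higher and 20.8% called lower. Of 7 cytosolic elongation factors 4 fell and 0 rose (median log2 −0.40), and none had an unadjusted edgeR p under 0.05 above 0. Those that fell include Eef1g and Eef1b2, subunits of the exchange factor that recharges eEF1A, and Eif5a (log2 −0.49, −0.49 and −0.40, edgeR adjusted p = 0.0014, 0.0017 and 0.0030). Of 16 mitochondrial translation factors and tRNA enzymes 5 fell, or 31.2%, and 0 rose (median log2 −0.18), and none had an unadjusted edgeR p under 0.05 above 0. Those that fell include the elongation factor Gfm1, the initiation factor Mtif2 and Tufm, which delivers charged tRNA to the mitochondrial ribosome (log2 −0.39, −0.33 and −0.34, edgeR adjusted p = 0.0027, 0.0045 and 0.019).

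The list of ATF4 and amino acid response genes moved upward. Of 23 genes 20 rose and 0 fell by edgeR (median log2 1.09, range 0.45 to 4.04), all 23 are higher in the authors' deposited table, and 22 were higher in every BAPN library, beside 15.6% of all genes called higher and 22.4% higher in every BAPN library. This list was known to have risen in these samples, so its direction is no independent evidence. Trib3 had 1633, 1465 and 3893 with BAPN and 108, 116 and 206 in controls (log2 4.03, edgeR adjusted p = 7.1e-04). Chac1 and Atf3 rose by log2 2.70 and 2.75 (edgeR adjusted p = 7.5e-04 and 8.7e-04), and Atf4 itself by 0.81 (0.0025). Psat1, Pycr1 and Slc7a5 were not called. The ratio of BAPN replicate 3 to replicates 1 and 2 was 1.16 to 2.90 over these 23 genes, all of them above 1, with a median of 1.71, beside the 1.34 of the cytosolic synthetases. The corresponding median in controls was 1.22 over these genes and 1.12 over the cytosolic synthetases. Of the 4 eIF2alpha kinases, Eif2ak3, which senses stress in the endoplasmic reticulum, rose by log2 1.08 (edgeR adjusted p = 2.6e-04) and Eif2ak4, which binds uncharged tRNA, by 0.33 (0.020), while Eif2ak1 (−0.18, 0.056) and Eif2ak2 were not called.

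In the authors' deposited table, at an adjusted p under 0.05, 10 cytosolic enzymes were higher and 4 lower and 6 mitochondrial enzymes lower, beside 15.6% of all genes higher and 21.1% lower. The authors' deposited table added Eprs, Gars, Lars, Mars, Nars and Tars to the cytosolic enzymes called higher here, and listed Lars2 in place of Aars2 among the mitochondrial ones.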

How the data were processed

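Total RNA from cultured satellite cells was sequenced as single reads of 60 nt. The submitters' processing notes name GRCm38 (mm10) and the tools DESeq2, HTSeq, STAR and cutadapt, without versions. The deposited tables hold raw counts per gene from the authors and, as a signal, counts divided by the authors' size factors, with the authors' log2 fold change, p-value and adjusted p-value, and a signed linear fold score that is not printed. The size factors were recovered by the ratio of raw to normalized counts.

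Raw counts of the 6 libraries were tested with edgeR 4.0.16 (glmQLFit and glmQLFTest, R 4.3.3) with the authors' size factors, over the 13716 of 18864 genes whose normalized counts averaged 10 or more, and adjusted by Benjamini-Hochberg over all of them. The standard error is the log2 fold change divided by the square root of F. The edgeR test was checked on simulated data, drawn as independent libraries with the same setting of spread for every gene. Those data held no shift of the libraries numbered 3, so the check does not cover such a shift. The members and gene lists were chosen with earlier results of these data known. All 36 members were accounted for, and from each pathway list the 3 genes with the smallest p were named, with further genes chosen after their values were seen. Of these, 1 gene is not reported here, nor is 1 of the motif matches. Alternatives were TMM and upper quartile scaling, DESeq2 1.42.0, no filter, leaving out each library, both libraries of number 3, a replicate block, and replicates 1 and 2 summed. Same-numbered libraries deviated together (correlations across genes 0.184, 0.191 and 0.366), so the numbers, which come from the titles, were used to pair samples in some comparisons. These were the replicate block and the same-numbered pairs. The main edgeR test did not use the pairing. This pairing rests on the data, which set number 3 apart but do not tell numbers 1 and 2 apart: BAPN 1 with control 2 gave 0.229, and BAPN 2 with control 1 gave 0.105. p-values rest on the spread of 3 libraries a group. Gene spans and merged exon lengths are from GENCODE M21 and promoter windows from RefSeq.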

Additional observations from a re-analysis of the deposited data

How the results depend on the processing

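The 4 cytosolic enzymes that rose by edgeR became 7 with TMM, 8 with upper quartile scaling, 9 with DESeq2, 11 with the replicate block, 11 without both libraries of number 3, 1 with replicates 1 and 2 summed, and 2 to 7 when each library was left out in turn. The 4 that fell were 1 with the summed replicates, 5 without BAPN replicate 3, 6 without both libraries of number 3 and 4 in every other alternative. The 6 mitochondrial enzymes that fell were 2 with the summed replicates, 9 without both libraries of number 3, 7 with the replicate block, 5 with TMM, upper quartile scaling and DESeq2, and 5 to 6 over the left-out libraries. Of all genes, 17.4% were called lower with TMM, 17.7% with upper quartile scaling and 17.2% with DESeq2. The cytosolic median log2 fold change ran from 0.065 to 0.37 and the mitochondrial from −0.28 to −0.16 over the left-out libraries, with −0.26 for the mitochondrial without both libraries of number 3. Over all genes, 716 were higher and 809 lower with the summed replicates, 3223 were higher without both libraries of number 3, and 1862 to 3113 were lower over the left-out libraries. All 14 calls were kept with the replicate block, which added 8 and changed no other call. Uncalled members near 0 changed sign. These were Vars with TMM (0.0061), upper quartile (0.00083) and the summed replicates (0.017) and over left-out libraries (−0.15 to 0.018), Fars2 with TMM (0.027), upper quartile (0.023) and DESeq2 (0.019) and over left-out libraries (−0.058 to 0.024), Pars2 with TMM (0.0087), upper quartile (0.0051) and DESeq2 (0.0017), Qars over left-out libraries (−0.094 to 0.0026), and Rars over left-out libraries (−0.013 to 0.23) and without both libraries of number 3 (−0.019). The cause of these shifts was not tested. Of the log2 fold changes of single members under the alternatives, 393 kept direction and side of the threshold, 39 passed it, 21 lost it and 15 changed sign. Depth limited Pars2 most, which had 71 to 90 raw counts a library.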
